A study of Mus musculus with 16 samples.

Results

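The genes encoding mitochondrial ribosomal proteins were followed in the white fat of obese mice with and without the hormone FGF21 and with and without rosiglitazone. All array probes whose platform symbol starts with Mrpl or Mrps and a digit were taken, which gave 110 probes of 76 genes among 25697 probes and 16593 named genes. Of these, 47 carried an Mrpl symbol and 29 an Mrps symbol, and each gene was represented by its brightest probe over the 16 arrays. Detection, a signal above the negative controls at a detection p of 0.05 or less, was required on at least 4 arrays. It was met by 69 genes, the members tested here.

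The mitochondrial ribosome translates the few messages encoded by mitochondrial DNA, which specify core subunits of respiratory complexes I, III, IV and the ATP synthase. Its RNAs come from mitochondrial DNA, but its proteins are encoded in the nucleus, made in the cytosol and imported. Some descend from bacterial ribosomal proteins and others were added in the mitochondrial lineage. In white fat, agonists of PPARG, the nuclear receptor that drives the adipocyte programme and is the target of rosiglitazone, are known to increase mitochondrial content. FGF21 is a hormone of the fibroblast growth factor family made by liver and fat.

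Epididymal fat came from diet-induced obese mice of 4 to 5 months, kept for 10 weeks on a high-fat diet. The groups were Fgf21-KO rosiglitazone, Fgf21-KO vehicle, WT rosiglitazone and WT vehicle. Rosiglitazone was given at 10 mg/kg over the last 2 weeks, and both genotypes had a mixed c57b6/sv129 background. Each group held 2 pools of RNA from 2 mice each, and each pool was hybridised to 2 bead arrays as technical repeats, so that n is 2 pools per group. The labels do not describe the knockout further, so the allele and whether WT mice were littermates are not given here. The study's title concerns FGF21, PPARG activity and the antidiabetic action of this drug class. The comparisons below therefore ask what the drug did in each genotype, what the genotype did under each treatment, and whether the drug difference depended on genotype.

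The signal of Fgf21 itself separated the genotypes as labelled. Its probe had log2 levels of 5.22 and 5.54 in Fgf21-KO rosiglitazone and 5.17 and 5.58 in Fgf21-KO vehicle pools. WT rosiglitazone pools had 8.37 and 7.17, and WT vehicle pools 7.53 and 7.79. On each array 12234 to 13096 probes were detected, and the median signal lay between 144.9 and 192.3. All 9 adipocyte markers tested were detected, and their summed signal ran from 245800 to 265800 in 7 pools. The other pool, WT rosiglitazone replicate 1, had 209200, mainly through Car3 (log2 level 14.04, against 15.61 to 15.85 elsewhere). Lipe was also lowest there (11.09, against 11.27 to 11.74 elsewhere) and Retn highest (7.83, against 6.88 to 7.80). Pparg, Adipoq, Plin1, Cidec, Pnpla2 and Lep lay within the range of the other pools. That pool stood apart along the first principal component, at 68.5 against -16.8 to -0.30 in the other 7 pools. Its smooth muscle markers (Acta2, Tagln, Myh11 and 2 others) summed to 81480, against 13100 to 22920 elsewhere, and its epithelial markers to 2950, against 371.8 to 1555. Fgf21-KO vehicle replicate 2 had a summed signal of 50670 for 4 liver markers tested, against 9239 to 18560 elsewhere, while the liver genes Alb and Fgb were detected on 0 arrays. For the members, medians are also given with pools left out. Drug differences of the marker lists and of other mitochondrial lists are given with all pools only. In tissue RNA, fewer cells of a type and less RNA per cell cannot be told apart.

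Mitochondrial genes of the nucleus are known to share binding sites for NRF1, GABPA (an ETS factor), YY1 and SP1. Promoter sequences of some members, chosen after their values were seen, are therefore shown first. They are RefSeq sequences of mouse build GRCm38.p6, read 5′ to 3′ on the strand of the gene and ending at the base before its start. Capitals mark matches on either strand to the letters CGCANGCG (NRF1), CCGGAAG (ETS), AAGATGGCG (YY1) and GGGCGG (SP1, the GC box). For Mrpl12, Mrps6 and Mrpl3 the 100 bases before the start are given, and for Mrps18b 230 bases. For Mrpl55 and Mrps11 they are the 54 and 41 bases between their start and that of a gene transcribed the other way.
Mrpl12, chr11:120484537-120484636, + strand: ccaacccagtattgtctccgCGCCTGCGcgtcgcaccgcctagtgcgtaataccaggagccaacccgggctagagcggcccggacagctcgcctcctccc
Mrps18b, chr17:35916441-35916670, - strand: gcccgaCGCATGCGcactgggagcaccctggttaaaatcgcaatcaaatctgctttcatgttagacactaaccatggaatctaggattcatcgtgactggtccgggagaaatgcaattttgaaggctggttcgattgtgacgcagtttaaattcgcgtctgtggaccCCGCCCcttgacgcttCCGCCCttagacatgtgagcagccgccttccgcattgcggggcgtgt
Mrps6, chr16:92058236-92058335, + strand: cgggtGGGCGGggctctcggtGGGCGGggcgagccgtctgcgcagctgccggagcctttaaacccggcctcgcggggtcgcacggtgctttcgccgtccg
Mrpl3, chr9:105053168-105053267, + strand: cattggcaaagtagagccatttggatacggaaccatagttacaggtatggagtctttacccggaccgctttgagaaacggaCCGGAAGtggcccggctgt
Mrpl55, chr11:59202432-59202485, + strand: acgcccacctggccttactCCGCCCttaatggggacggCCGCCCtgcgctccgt
Mrps11, chr7:78783090-78783130, + strand: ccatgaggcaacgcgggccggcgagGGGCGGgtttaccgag

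The Mrpl12 window held an NRF1 match 80 bases before the start and the Mrpl3 window an ETS match 19 bases before it. Mrps18b had an NRF1 match 224 bases and GC boxes 63 and 47 bases before its start. Mrps6 and Mrpl55 had a pair of GC boxes each, and the Mrps11 bases, which also lie before the start of Mrpl46, held a single one. An ETS match of Mrps18b and a YY1 match of Mrps11 lay outside the bases shown, within the longer promoters described next. Over 300-base promoters (250 bases before to 50 after the start), entries were found for 67 of the 76 members. Of these 67, 28.4% held the NRF1 letters, against 16.7% of the 7711 tested genes with a promoter and 8.42% of 27025 genes in all. The ETS letters stood in 37.3% of members, against 17.3% of tested genes, and the YY1 letters in 11.9%, against 3.11%. At least 1 of these 3 motifs was present in 62.7% of members and 32.3% of tested genes. GC boxes were no more frequent, at 50.7% against 62.3%, and CCAAT (38.8% against 39.0%) and TATAAA (5.97% against 8.26%) were also near or below the share of tested genes. A match is a run of letters and not a measured site. No test was made of these shares.

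Rosiglitazone in Fgf21-KO fat went with higher mitochondrial ribosomal protein signals across the list, by a small amount per gene. Of the 69 members, 62 were higher in Fgf21-KO rosiglitazone than in Fgf21-KO vehicle pools. The median log2 difference was 0.13, with the middle 50% of members between 0.05 and 0.21. Over all 9542 genes tested, 49.0% were higher and the median was 0.00 (-0.0044). Both rosiglitazone pools exceeded both vehicle pools for 40 members, or 58.0%, against a background of 22.9% of all 13759 probes tested. The reverse held for 2 members (Mrpl15 and Mrpl2), or 2.9%, against 21.1% of all probes. No member passed an adjusted p of 0.05 (limma with Benjamini-Hochberg adjustment over all probes), nor did any probe on the array (0.0%). At an unadjusted p under 0.05 there were 3 members higher and 0 lower, or 4.35% and 0.0%, against 2.83% and 2.8% of all probes. In all, 775 probes were past that unadjusted threshold. The list is thus described by its shared direction, and its single genes were not separated from the spread used by the fit. That spread is shared by all 4 groups and was widest in WT rosiglitazone. Pools there differed by a median of 0.303 per member, against 0.0881 in Fgf21-KO rosiglitazone and 0.1035 in Fgf21-KO vehicle. With only the Fgf21-KO groups fitted, still no member passed (lowest adjusted p 0.387 by limma). With each array scaled by its median alone, all genes shifted to a median of -0.09, 42 of 69 members were higher and the member median was 0.04. Pools then did not overlap for 18 members on the high side and 5 on the low side, against 12.4% and 32.6% of all probes. Without Fgf21-KO vehicle replicate 2, the pool with liver markers, 59 of 69 members were higher with a median of 0.15. Several marker lists of other cells also leaned one way in Fgf21-KO fat under the drug. Mesothelial markers were higher for 0 of 5 genes (median -0.68), epithelial for 0 of 5 (-0.63) and liver for 0 of 4 (-2.03). Endothelial markers were higher for 4 of 4 (0.20) and mast cell markers for 4 of 4 (0.16). Macrophage markers were higher for 1 of 4 (-0.13), smooth muscle for 3 of 5 (0.37) and adipocyte for 5 of 9 (0.09). The size of the liver median rested on Fgf21-KO vehicle replicate 2. Median deviations of that list from each gene's own mean were -1.11 and 3.04 in Fgf21-KO vehicle pools. In Fgf21-KO rosiglitazone pools they were -0.67 and -1.49. Summed signals were 5004 and 2163 for mesothelium in Fgf21-KO rosiglitazone pools, against 5992 and 4435 in Fgf21-KO vehicle pools. For adipocyte markers they were 265800 and 259300 in Fgf21-KO rosiglitazone pools, against 247400 and 245800 in Fgf21-KO vehicle pools, without overlap. The part of these cells in the members' signals was not tested.

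**Figure D1:**
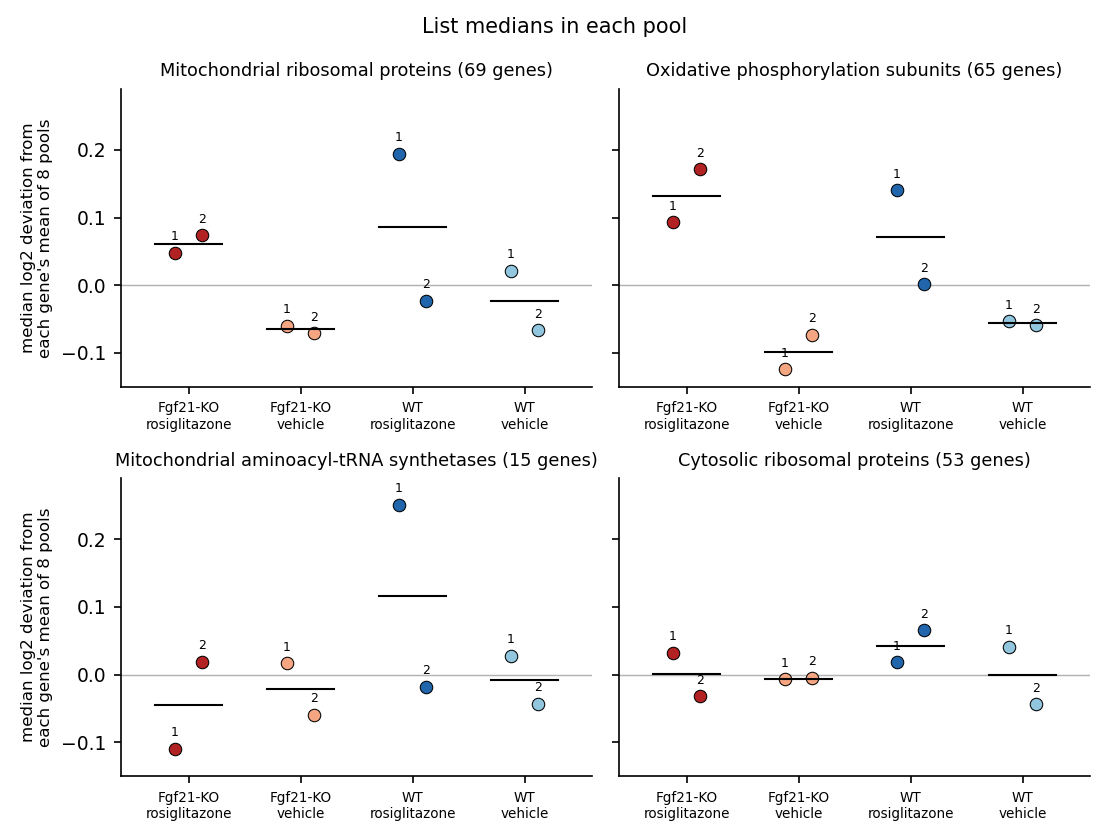
Median log2 deviation of a gene list from each gene's own mean over the 8 pools, for 4 lists, by group. Points are pools numbered by replicate and bars are the mean of the 2 pools. The mitochondrial ribosomal proteins lie at 0.05 and 0.07 in Fgf21-KO rosiglitazone and at -0.06 and -0.07 in Fgf21-KO vehicle, while the WT rosiglitazone pools lie at 0.19 and -0.02.

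Members were grouped by subunit and into a bacterial-type and a mitochondria-specific class. The classes follow the usual nomenclature, which puts Mrps18a and Mrps18b with the mitochondria-specific proteins although they resemble bacterial S18. In the bacterial-type class of the large subunit, 23 of 26 were higher under the drug in Fgf21-KO fat, with a median of 0.15. The leading member was Mrpl12, the relative of the bacterial L7/L12 stalk protein that recruits translation factors, reported in human cells also to bind mitochondrial RNA polymerase. Its log2 levels were 12.50 and 12.42 in Fgf21-KO rosiglitazone pools, against 12.11 and 12.04 in Fgf21-KO vehicle pools. The groups did not overlap, and the difference was 0.39 (SE 0.16, 1.31-fold, adjusted p = 0.885 by limma). Mrpl20, the relative of an early-binding bacterial assembly protein, had 10.72 and 10.86 in Fgf21-KO rosiglitazone pools and 10.58 and 10.38 in Fgf21-KO vehicle pools. Its difference was 0.31 (SE 0.14), again without overlap. Mrpl30 differed by 0.30 and Mrpl47 by 0.29. Mrpl3 differed by 0.10 (SE 0.12), with 10.59 and 10.62 in Fgf21-KO rosiglitazone pools and 10.49 and 10.52 in Fgf21-KO vehicle pools, a small difference between closely agreeing pools.

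The 3 lower members of this class were Mrpl15, Mrpl2 and Mrpl23. Mrpl15, the L15 relative, had 5.16 and 5.75 in Fgf21-KO rosiglitazone pools and 6.18 and 5.96 in Fgf21-KO vehicle pools. Its difference of -0.62 (SE 0.30, adjusted p = 0.926 by limma) was the largest in size of any member, at a probe detected on 12 of 16 arrays and thus close to background. Mrpl2, whose bacterial relative lies near the peptidyl transferase centre, differed by -0.11 (SE 0.21).

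Of the 19 mitochondria-specific members of the large subunit, 17 were higher, with a median of 0.12. Mrpl55 had the smallest p of all members in this comparison. Its log2 levels were 9.01 and 8.90 in Fgf21-KO rosiglitazone pools, against 8.44 and 8.55 in Fgf21-KO vehicle pools. The gap between the groups was wider than the spread within either, and the difference was 0.46 (SE 0.15, 1.38-fold, unadjusted p = 0.0171, adjusted p = 0.827 by limma). Mrps18a and Mrps30, which carry small-subunit symbols but sit in the large subunit, differed by 0.19 (SE 0.21) and 0.03 (SE 0.17). Mrpl57 differed by -0.14, Mrpl52 by -0.0028 and Mrpl54 by 0.0001.

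In the small subunit, 13 of 15 bacterial-type members were higher, with a median of 0.13, and 9 of 9 mitochondria-specific ones, with a median of 0.16. Mrps18b, which with Mrps18a and Mrps18c forms a trio of relatives of bacterial S18, had 11.70 and 11.63 in Fgf21-KO rosiglitazone pools, against 11.26 and 11.31 in Fgf21-KO vehicle pools. The difference was 0.38 (SE 0.16, adjusted p = 0.885 by limma), with no overlap. Mrps18c differed by 0.29 (SE 0.15), so that the signals of all 3 relatives were higher, Mrps18a by the least. Mrps6, the S6 relative, had 12.77 and 12.79 in Fgf21-KO rosiglitazone pools and 12.58 and 12.34 in Fgf21-KO vehicle pools, a difference of 0.32 (SE 0.16). Mrps12, which in bacteria lies at the decoding centre, differed by 0.23 (SE 0.17). Mrps24, whose probe was the brightest of all, differed by -0.09 (SE 0.16).

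Rosiglitazone in WT fat gave a list that leaned the same way on average, but the 2 drug-treated pools disagreed. Of the 69 members, 52 were higher in WT rosiglitazone than in WT vehicle pools. Their median difference was 0.10 on the log2 scale, with a middle 50% from 0.02 to 0.20. Over all genes tested 55.5% were higher, with a median of 0.03. Both rosiglitazone pools exceeded both vehicle pools for 15 members, or 21.7%, against 17.6% of all probes. Both lay below for 4 members (Mrpl11, Mrpl18, Mrpl53 and Mrps22), or 5.8%, against 17.3% of all probes. No member passed an adjusted p of 0.05 by limma and no probe did (0.0%), while 1143 probes had an unadjusted p under 0.05. Those included 3 members higher and 1 lower, or 4.35% and 1.45%, against 4.48% and 3.83% of all probes, shares at or under the background.

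The result in WT turned on WT rosiglitazone replicate 1. This pool held the highest level of all 8 pools for 38 of 69 members and the lowest for 13, and the member median lay at 0.19 above the mean of all pools there, against -0.02 in replicate 2. The 2 pools of that group differed by a median of 0.303 per member, against 0.0881 to 0.128 in the other groups. Without replicate 1 the member median in WT was 0.01, with 37 of 69 higher, beside a median of -0.02 over all genes. Without replicate 2 it was 0.25, with 54 of 69 higher. In that case 2702 probes were past the adjusted threshold, among them 6 members higher and 5 lower (Mrpl12, Mrpl55 and Mrps18b among the higher, Mrpl11, Mrpl18 and Mrpl53 among the lower). That was 15.9% of members, against 19.6% of all probes. A group of 1 pool was then assumed to vary like the others. Replicate 1 was also the pool with the high smooth muscle and epithelial markers, and 5 of 5 tested genes of each of these lists were higher in WT rosiglitazone than in WT vehicle pools. Smooth muscle markers summed to 81480 in replicate 1 but to 17790 in replicate 2, beside 14120 and 17620 in WT vehicle pools. Replicate 1 also had the lowest sums for macrophage markers (9085, against 13160 to 17610 elsewhere) and endothelial markers (4238, against 5297 to 7508). The part of those cells in the members' signals was not tested.

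**Figure D2:**
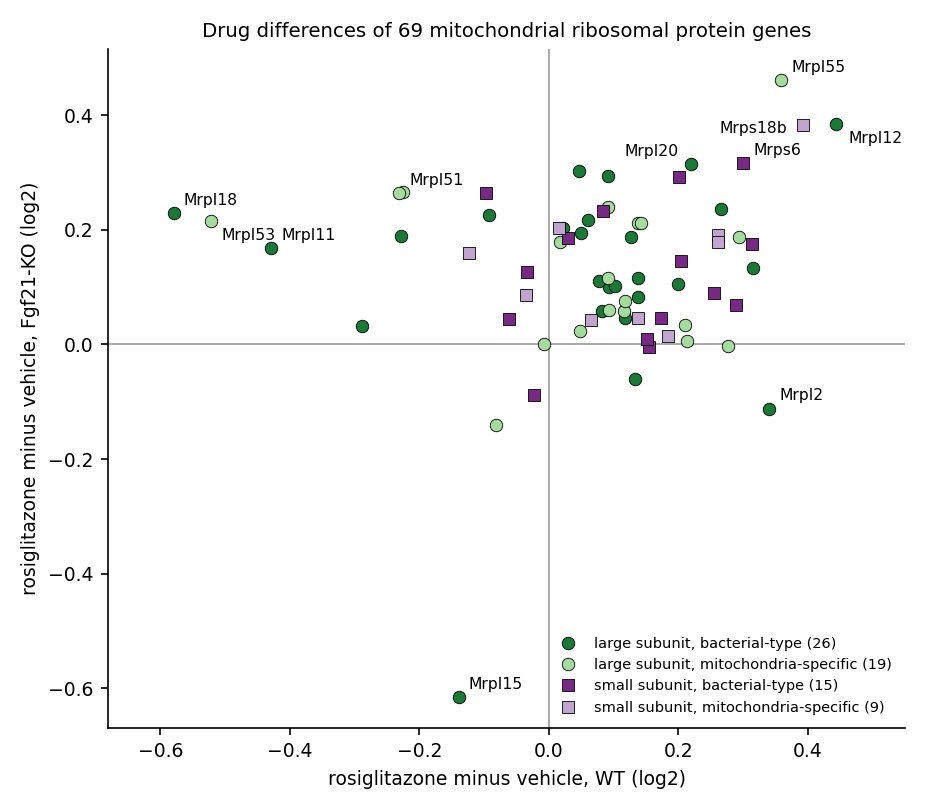
Log2 difference between rosiglitazone and vehicle in WT fat (x axis) and in Fgf21-KO fat (y axis) for the 69 tested members, coloured by subunit and by the bacterial-type or mitochondria-specific class. Most points (48 of 69) are above 0 on both axes, and Mrpl18, Mrpl53 and Mrpl11 lie at the left with -0.58, -0.52 and -0.43 in WT.

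The 3 members with the largest positive drug difference in WT also had the largest ones in Fgf21-KO fat. Mrpl12 had 12.46 and 12.14 in WT rosiglitazone pools, against 11.93 and 11.78 in WT vehicle pools, a difference of 0.44 (SE 0.16, 1.36-fold, unadjusted p = 0.0255, adjusted p = 0.571 by limma). Mrpl55 had 9.12 and 8.84 in WT rosiglitazone pools, against 8.65 and 8.59 in WT vehicle pools, a difference of 0.36 (SE 0.15). Mrps18b had 11.82 and 11.47 in WT rosiglitazone pools and 11.17 and 11.33 in WT vehicle pools, a difference of 0.39 (SE 0.16). None of these 3 overlapped, even though replicate 1 was the higher drug pool in each. Mrps6 had 12.80 and 12.88 in WT rosiglitazone pools and 12.68 and 12.40 in WT vehicle pools, and here the 2 drug pools lay close together, with replicate 2 the higher. Mrps28 differed by 0.31 (SE 0.15), Mrpl20 by 0.22 (SE 0.14) and Mrps11 by 0.20 (SE 0.13).

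On the low side, Mrpl18, the relative of the bacterial 5S rRNA-binding protein L18, had 9.27 and 9.79 in WT rosiglitazone pools, against 10.10 and 10.12 in WT vehicle pools. Its difference of -0.58 (SE 0.19, 0.669-fold, adjusted p = 0.566 by limma) was the largest in size among members in WT. Mrpl53, a mitochondria-specific protein, had 11.67 and 12.53 in WT rosiglitazone pools and 12.67 and 12.58 in WT vehicle pools. Mrpl11, the relative of the L11 protein at the base of the stalk, had 9.83 and 10.60 in WT rosiglitazone pools and 10.64 and 10.65 in WT vehicle pools. In both, replicate 1 lay far below the vehicle pools, and replicate 2 only just below the lower vehicle pool. Without replicate 1, Mrpl4, at -0.23 with both pools, stood at 0.01.

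**Figure D3:**
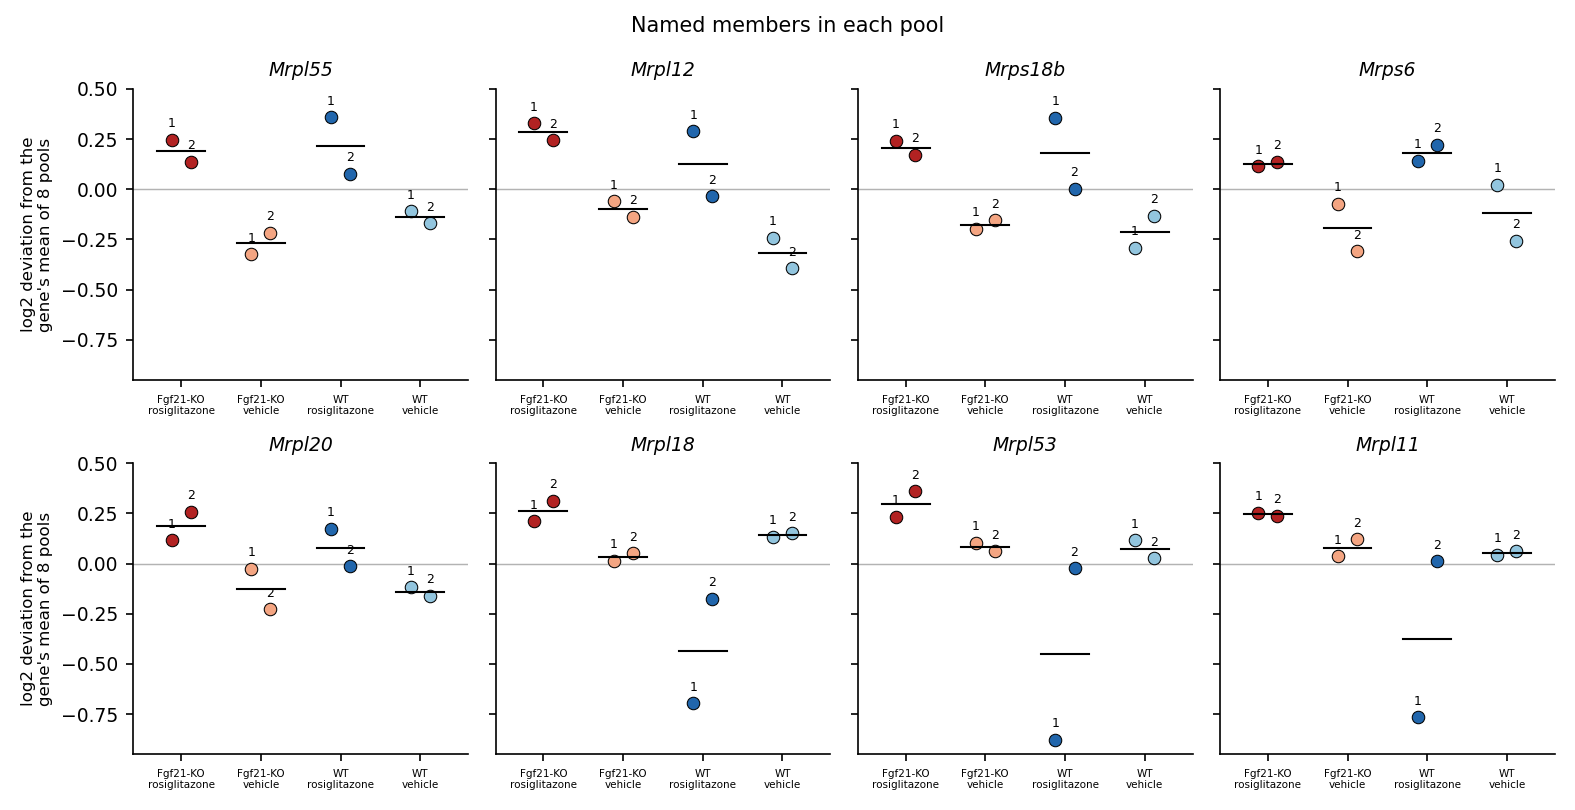
Log2 deviation of 8 named members from their own mean over the 8 pools, by group; points are pools numbered by replicate and bars the mean of the 2 pools. Mrpl55, Mrpl12, Mrps18b, Mrps6 and Mrpl20 are higher in both rosiglitazone pools than in both vehicle pools of each genotype, and for Mrpl18, Mrpl53 and Mrpl11 WT rosiglitazone replicate 1 is the lowest pool.

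Where both genotypes were read together, 48 members were higher under the drug in both, 3 lower in both, 14 higher in Fgf21-KO but lower in WT, and 4 the other way. Pools did not overlap and were higher in both genotypes for 14 members, or 20.3%, against 5.16% of all probes. These were Mrpl3, Mrpl12, Mrpl14, Mrpl16, Mrpl20, Mrpl27, Mrpl55, Mrps6, Mrps11, Mrps18b, Mrps18c, Mrps25, Mrps28 and Mrps31. The count rests on the brightest probe of each gene. In WT, another probe of Mrpl3 differed by -0.55, and others of Mrps31 by -0.04 and -0.43. A further probe of Mrps18b and a further probe of Mrps25 overlapped in WT, while both probes of Mrps11 did not. Lower in both without overlap there were 0 members, against 4.62% of all probes. With median scaling the 14 became 6, against 2.73% of all probes. Without WT rosiglitazone replicate 1 there were 19, against 8.9% of all probes, and without replicate 2 there were 25, against 11.3%, shares that a group of 1 pool also raises. These counts under other settings were added after the data had been seen.

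Averaged over genotypes, 59 of 69 members were higher under the drug, with a median of 0.11, against 52.0% and a median of 0.01 over all genes. All 4 rosiglitazone pools exceeded all 4 vehicle pools for 8 members, or 11.6%, against 2.42% of all probes, and none lay below (0.0%, against 2.21%). The 8 were Mrpl12, Mrpl14, Mrpl20, Mrpl55, Mrps6, Mrps18b, Mrps18c and Mrps25, each by its brightest probe. By a further probe, Mrps18b and Mrps25 overlapped. Mrpl14 contacts the small subunit at the bridge between subunits, and Mrps25 is a small-subunit protein of the mitochondrial lineage. The smallest p belonged to Mrpl55, with a difference of 0.41 (SE 0.10, unadjusted p = 0.00596, adjusted p = 0.501 by limma). Mrpl12 followed with 0.41 (SE 0.11), Mrps18b with 0.39 (SE 0.11) and Mrps6 with 0.31 (SE 0.11). With 1204 probes at an unadjusted p under 0.05, the members held 5 higher and 0 lower, or 7.25% and 0.0%, against 4.8% and 3.95% of all probes. None passed the adjusted threshold, and neither did any probe (0.0%). At the other end Mrpl15 differed by -0.38 (SE 0.21). Without WT rosiglitazone replicate 1 the median was 0.06 with 49 of 69 higher. Without replicate 2, Mrpl12, Mrpl55 and Mrps18b were past the threshold on the high side and Mrpl11 and Mrpl53 on the low side, or 7.25% of members, against 13.3% of all probes.

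Gene by gene, the sizes of the responses correlated little between genotypes. The WT differences include WT rosiglitazone replicate 1, in a group whose pools differed by a median of 0.303 per member. No correlation was taken without that pool, so the low values cannot show that the genotypes differ. Across the 69 members, the difference in Fgf21-KO and that in WT had a Pearson r of 0.107 and a Spearman rho of 0.03, as a description over genes that share the same pools. Over all 9542 genes r was 0.0496. The interaction, the drug difference in Fgf21-KO minus that in WT, had a member median of 0.00 (-0.0005), with 34 of 69 members above 0, against 44.3% and a median of -0.04 over all genes. Of 681 probes with an unadjusted p under 0.05, 1 was a member above 0 (1.45%) and 0 below (0.0%), against 2.28% and 2.67% of all probes. No probe passed the adjusted threshold (0.0%). That member was Mrpl18, at 0.81 (SE 0.26, unadjusted p = 0.0190, adjusted p = 0.827 by limma), with 10.18 and 10.28 in Fgf21-KO rosiglitazone and 9.98 and 10.02 in Fgf21-KO vehicle pools beside the lower WT drug values above. Mrpl53 stood at 0.74 (SE 0.37) and Mrpl2 at -0.45 (SE 0.30). Without WT rosiglitazone replicate 1 the interaction median was 0.11 with 58 of 69 members above 0, and without replicate 2 it was -0.15 with 25. Leaving out replicate 2 also put 5 members past the adjusted threshold, Mrpl11, Mrpl18, Mrpl42, Mrpl51 and Mrpl53, or 7.25%, against 12.4% of all probes. Whether the drug difference of the list depends on Fgf21 thus cannot be read from these pools, since its sign turned with the WT drug pool left out.

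Without the drug, members leaned slightly lower in Fgf21-KO fat. In Fgf21-KO vehicle pools 22 of the 69 members were higher than in WT vehicle pools, and the median was -0.05 (log2), against 48.4% and -0.01 over all genes. Pools did not overlap for 5 members on the high side and 17 on the low side, or 7.25% and 24.6%, against 20.4% and 22.5% of all probes. Without WT vehicle replicate 1 the median was -0.01 with 32 of 69 higher, beside 49.6% over all genes, so that the lean rested on that pool. No member had an unadjusted p under 0.05 in either direction (0.0% each, against 2.33% and 2.43% of all probes, 655 probes in all), and no probe passed the adjusted threshold by limma (0.0%). Mrpl39 had 5.15 and 5.79 in Fgf21-KO vehicle pools and 5.95 and 6.17 in WT vehicle pools, close to background and detected on 12 arrays. Mrpl54 had 11.99 and 11.85 in Fgf21-KO vehicle pools and 12.29 and 12.07 in WT vehicle pools, a difference of -0.26 (SE 0.15). On the high side Mrpl12 had 12.11 and 12.04 in Fgf21-KO vehicle pools, against 11.93 and 11.78 in WT vehicle pools, a difference of 0.22 (SE 0.16).

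Under rosiglitazone, 31 of 69 members were higher in Fgf21-KO than in WT pools, with a median of -0.01, against 44.2% and -0.05 over all genes. Non-overlapping pools were equally split, 12 higher and 12 lower (17.4% each), against 22.3% and 24.1% of all probes. At an unadjusted p under 0.05 there were 6 members higher (8.7%) and 0 lower (0.0%), against 7.75% and 8.1% of all probes, 2182 in all. The 6 were Mrpl18, Mrpl53, Mrps16, Mrpl11, Mrpl33 and Mrpl51. Mrpl18 led with 0.70 (SE 0.19, adjusted p = 0.215 by limma), and again no probe passed (0.0%). Without WT rosiglitazone replicate 1 the median was 0.09 with 49 of 69 higher. Without replicate 2 it was -0.16 with 23 higher, and 7 members on the high side and 5 on the low side passed the adjusted threshold, or 17.4%, against 24.6% of all probes.

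Averaged over treatments, 31 of 69 members were higher in Fgf21-KO than in WT pools, with a median of -0.02, equal to the -0.02 of all genes to the second decimal. All 4 Fgf21-KO pools lay below all 4 WT pools for 3 members, Mrpl46, Mrpl52 and Mrpl54 (4.35%), and above for 0 (0.0%), against 5.4% and 4.56% of all probes. At an unadjusted p under 0.05 there were 3 lower (Mrps15, Mrpl39 and Mrpl54) and 0 higher, or 4.35% and 0.0%, against 7.73% and 6.3% of 13759 probes, 1931 probes in all. Here 3 probes passed the adjusted threshold (0.0218%), none of them a member's. Without WT rosiglitazone replicate 2 the count was 2755 probes (20.0%), with 5 members higher and 7 lower (17.4%). Mrps15, the S15 relative, had 7.83 and 8.23 in Fgf21-KO rosiglitazone, 8.02 and 7.86 in Fgf21-KO vehicle, 8.61 and 8.40 in WT rosiglitazone and 8.48 and 8.01 in WT vehicle pools. Its averaged difference was -0.39 (SE 0.15, adjusted p = 0.335 by limma). The beads behind each signal also went with genotype, with a mean of 39.4 to 40.7 on Fgf21-KO and 36.0 to 38.9 on WT arrays, so that bead number and genotype cannot be told apart.

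The genotype comparison depended on the scale of the values. On the deposited non-normalized signals, 69 of 69 members were lower in Fgf21-KO vehicle than in WT vehicle pools, with a median ratio of 0.810, but the median ratio over all tested probes was 0.835 as well. On the deposited normalized intensities 47 of 69 members were below 1, with a median ratio of 0.966 beside 0.997 over all tested probes. Median scaling of each array left 6 of 69 members higher, at a median of -0.15 (log2) beside -0.08 over all genes. Relative to all genes, the members were therefore lower by less than 0.1 on the log2 scale under quantile normalization as under median scaling.

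**Figure D4:**
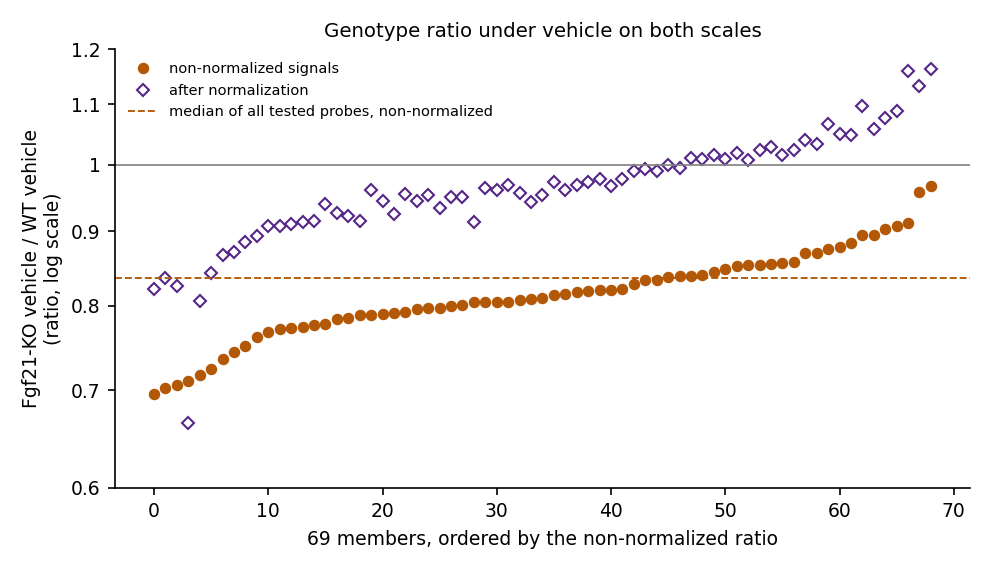
Ratio of Fgf21-KO vehicle to WT vehicle for the 69 tested members, ordered by the non-normalized ratio, on a log axis. Filled points are non-normalized signals and open points are values after normalization in the present fit; all filled points are below 1, around the dashed median of all tested probes at 0.835.

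In the authors' deposited table of tests, 11 members had a row. The authors' deposited table called 6 of them past its Bonferroni threshold of 0.05 for genotype under vehicle, all lower in Fgf21-KO. The ratios of Fgf21-KO to WT in the authors' deposited table were 0.696 for Mrpl52, 0.703 for Mrpl54, 0.706 for Mrps35, 0.714 for Mrpl3, 0.724 for Mrpl43 and 0.735 for Mrps26. Over all 2594 rows with a gene, the authors' deposited table held 818 genotype calls, and 738 of these were lower in Fgf21-KO. The group means in the authors' deposited table equalled the non-normalized group means within 0.2% for 2252 of 2265 rows matched by symbol, and equalled the normalized means for 0. On normalized intensities the ratios of the same 6 probes were 0.836 for Mrpl52, 0.838 for Mrpl54, 0.841 for Mrps35, 0.849 for Mrpl3, 0.858 for Mrpl43 and 0.873 for Mrps26, so that each remained below 1. The Mrpl3 row is not its brightest probe. The 6 probes were chosen through calls made on the same arrays, and none of them passed the adjusted threshold in the present fit. For the drug, the authors' deposited table called 1 member in WT, Mrpl12, with a ratio of rosiglitazone to vehicle of 1.55, and 0 members in Fgf21-KO. Over its 2594 rows with a gene, the authors' deposited table held 475 calls for the drug in WT and 297 in Fgf21-KO. In the present fit the fold for Mrpl12 in WT was 1.36.

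Where a gene had several probes, these could be set against each other. In Fgf21-KO fat the tested probes of 17 of 19 such members had the same sign of drug difference, with Mrpl49 and Mrpl51 the exceptions. In WT fat this held for 9 of 19. For genotype it held for 5 of 19 under vehicle and 9 of 19 under rosiglitazone, and for the interaction for 7 of 19. The exceptions for the drug in WT were Mrpl3, Mrpl10, Mrpl33, Mrpl48, Mrpl49, Mrpl51, Mrps5, Mrps10, Mrps31 and Mrps33. Both probes of Mrps18b were higher in Fgf21-KO rosiglitazone, by 0.38 and 0.42, and in WT rosiglitazone, by 0.39 and 0.03. Mrpl12, Mrpl55, Mrps6, Mrpl20, Mrpl53 and Mrpl11 had a single probe and thus no such check, and the second probe of Mrpl18 was not detected.

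The spread between probes was widest in a single pool. The range between probes of a gene, each taken relative to its own mean over the pools, had a median of 0.512 in WT rosiglitazone replicate 1, against 0.107 to 0.175 in the other 7 pools. Over all 2472 genes with several tested probes it was 0.424 in that pool, against 0.156 to 0.211. In that pool the Mrpl3 probes lay at 0.08 and -0.85 relative to their means, the Mrps33 probes at 0.17 and -0.91, and the Mrpl33 probes at -0.53 and 0.08. Probes of the same gene thus gave opposite readings there, and differences in WT that rest on 1 probe (Mrpl11, Mrpl53) or on replicate 1 have no such check.

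**Figure D5:**
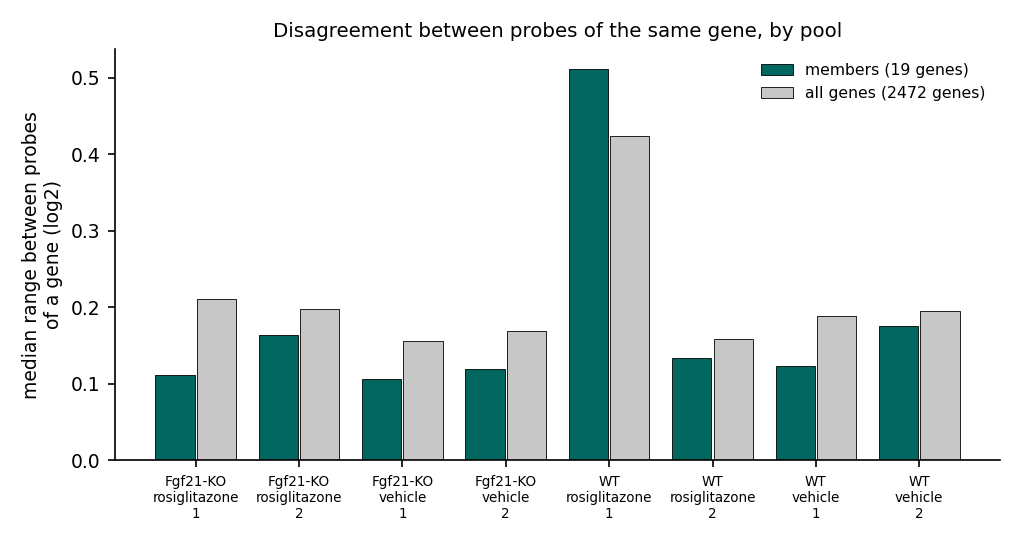
Median range (log2) between the tested probes of a gene in each pool, for 19 members and for 2472 genes with several tested probes. The bars of WT rosiglitazone replicate 1 reach 0.512 and 0.424, and those of the other pools stay at 0.211 or below.

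Lists of other mitochondrial genes put the members in context. Oxidative phosphorylation subunits were higher under the drug in Fgf21-KO fat for 65 of 65 genes, with a median of 0.24, and in WT fat for 46 of 65, with a median of 0.11. In Fgf21-KO fat these included Ndufb9 of complex I (0.77, SE 0.18), Atp5o of the ATP synthase (0.56, SE 0.15) and Sdhd of complex II (0.72, SE 0.23), none past the adjusted threshold. Import and membrane proteins were higher for 17 of 19 genes in Fgf21-KO (median 0.24), led by the chaperonins Hspd1 (0.42) and Hspe1 (0.41), and for 10 of 19 in WT (median 0.08). The members' median of 0.13 in Fgf21-KO fat thus lay below those of both lists.

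The rest of the mitochondrial translation apparatus was mixed. Translation factors were higher for 10 of 15 genes in Fgf21-KO (median 0.17), with Slirp, which stabilises mitochondrial messages, at 0.43. In WT they were higher for 7 of 15 (median -0.03), with Mtfmt, which formylates the initiator transfer RNA, at -0.68. Mitochondrial aminoacyl-tRNA synthetases were higher for 4 of 15 in Fgf21-KO (median -0.04) and for 13 of 15 in WT (median 0.16). Genes of ribosome assembly and ribosomal RNA modification were higher for 16 of 19 in each genotype, with medians of 0.08 in Fgf21-KO and 0.15 in WT. Both WT medians went with WT rosiglitazone replicate 1. Median deviations from each gene's own mean were 0.25 there and -0.02 in replicate 2 for the synthetases, against 0.03 and -0.04 in WT vehicle pools. For the assembly genes they were 0.28 and -0.05, against 0.01 and -0.07. Rcc1l, a ribosome assembly factor, stood at 0.70 in Fgf21-KO, and the RNA helicase Dhx30 at 0.39 in WT. Of 3 tested mitoribosomal proteins under other symbols, Dap3, Chchd1 and Ptcd3, 2 were higher in each genotype.

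Genes of mitochondrial DNA transcription and maintenance were higher for 6 of 12 in Fgf21-KO (median 0.01) and 7 of 12 in WT (median 0.05). Ssbp1, the single-stranded DNA binding protein of mitochondria, stood at 0.31 in Fgf21-KO and 0.41 in WT, and the helicase gene Twnk at 0.27 in Fgf21-KO and -0.94 in WT. Of 11 regulators, 8 were higher in Fgf21-KO and 6 in WT, or 72.7% and 54.5%, against 49.0% and 55.5% of all genes tested. Their differences ran from -0.20 to 0.48 in Fgf21-KO and from -1.12 to 0.45 in WT, with the coactivator Ppargc1a at 0.48 and 0.45. Cytosolic ribosomal proteins, the counterparts that translate nuclear messages, were higher for 33 of 53 in each genotype, with medians of 0.02 in Fgf21-KO and 0.07 in WT. No gene of these lists passed the adjusted threshold in either drug comparison.

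The motif matches did not divide the responses sharply. In Fgf21-KO fat, the 23 tested members with an ETS match had a median drug difference of 0.19, against 0.12 in the 38 without. In WT fat the order was the other way, at 0.08 with and 0.14 without. For the NRF1 letters the medians were 0.15 with (16 members) and 0.15 without (45 members) in Fgf21-KO fat. These are descriptions over genes, with no test.

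Of the 76 members, 7 were not tested. Mrps14, Mrpl19, Mrpl21, Mrpl32, Mrpl45 and Mrps36 were detected on 0 arrays and Mrps27 on 3. Mrpl45 helps to anchor the ribosome at the inner membrane, and Mrps36 is now known as a protein of the oxoglutarate dehydrogenase complex. Among the tested members, the probes with the highest mean signal were those of Mrps24 (9987), Mrpl33 (9554), Mrps6 (6730), Mrpl53 (6214) and Mrps33 (6005). The lowest were those of Mrpl39 (181.9), Mrpl15 (186.1), Mrpl57 (219.2), Mrpl51 (325.5) and Mrps2 (376.3). These are signals of different probes and give no order of the transcripts' amounts. For the 5 dimmest, small differences in signal can become large on the log2 scale.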

How the data were processed

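RNA of epididymal fat was labelled with biotin, per the labels, and read on Illumina MouseRef-8 bead arrays, 16 arrays of 8 pools in 4 groups. The deposited non-normalized table holds bead intensity on a linear scale with a detection p-value per probe, per the file headers. The authors' deposited normalized intensity values were quantile normalized, as judged from their equal ranks (median range 0.109%). The authors' deposited statistics table comes from VAMPIRE, a test for array signals, and lists a ratio and a p-value for 3 comparisons, the drug in each genotype and genotype under vehicle, per the file headers. Not used were 64 columns, bead standard errors and those that the normalized table repeats. The scanner software is not given in the sources used here.

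Signals were corrected with limma's nec (limma 3.58.1 in R 4.3.3, offset 16, detection p-values), quantile normalized and turned into log2 values, and the 2 arrays of each pool were averaged. Probes detected on at least 4 arrays (13759) entered lmFit and eBayes with 4 group means (residual degrees of freedom 4, prior 2.75), with 7 contrasts. Tests were two-sided and adjusted by Benjamini-Hochberg over all tested probes. SE is that of the fit. Pools count as replicates. The p-values measure only the spread between 2 pools per group, estimated over all 4 groups together, which limits the precision. Tables and plots used Python 3.11.15, pandas 2.3.3, numpy 2.4.6 and matplotlib 3.10.9. The fit was tested on simulated data.

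The members and lists were chosen with earlier results of these data known. Named members are the 5 of highest and 5 of lowest moderated statistic in each contrast, the 5 brightest and dimmest, those not tested or with disagreeing probes, any past the adjusted threshold, and always Mrps18a, Mrps18b, Mrps18c, Mrps12, Mrps30, Mrps36, Mrpl12 and Mrpl45. From other lists up to 4 genes of smallest p were named. Mrpl14, Mrpl27 and Mrps22, partner genes of shared start regions and the sequences shown were chosen after their values were seen. Alternatives changed background, scaling, filter, variance model, block and pools; counts of non-overlapping pools under other settings were added after the data were seen.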

Additional observations from a re-analysis of the deposited data

Results flagged for a closer look

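For 4 members both pools of a genotype moved apart from their vehicle pools without overlap, upward in Fgf21-KO and downward in WT. For Mrpl18 the drug difference in Fgf21-KO minus that in WT was 0.8084 on the log2 scale, for Mrpl53 0.7363, for Mrpl11 0.597 and for Mrps22 0.2839. The interaction term of limma did not separate any of them from 0 (adjusted p = 0.827 for each). The same pattern in either direction was seen at 782 probes, or 5.68% of those tested, and 4 of 69 members is a like share. For all 4 of these members the lowest of the 8 pools was WT rosiglitazone replicate 1. Mrps22 had 10.82 and 10.73 in Fgf21-KO rosiglitazone and 10.57 and 10.66 in Fgf21-KO vehicle pools, and 10.44 and 10.56 in WT rosiglitazone and 10.63 and 10.62 in WT vehicle pools.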

How the results depend on the processing

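With 2 pools per group no member passed the adjusted threshold in any comparison, under the settings that kept all pools, except Mrpl18 and Mrpl53 for genotype under rosiglitazone with all 16 arrays and the pool as a random block (lowest adjusted p 0.0303). Signal over background limits Mrpl15 and Mrpl39, detected on 12 arrays.

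Median scaling moved the members' median to 0.0439 for the drug in Fgf21-KO, to -0.1505 for genotype under vehicle, to -0.2392 for genotype under rosiglitazone, to -0.1373 for the interaction and to -0.1914 for genotype averaged over treatments; the medians of all genes moved with it, to -0.2212 for genotype under rosiglitazone. Leaving out both WT rosiglitazone replicate 1 and Fgf21-KO vehicle replicate 2 gave 0.0073 for the drug in WT, 0.0858 for genotype under rosiglitazone and 0.1039 for the interaction. Leaving out each pool in turn, the median ran from 0.0990 to 0.1610 for the drug in Fgf21-KO, 0.0073 to 0.2523 for the drug in WT, -0.0849 to -0.0062 for genotype under vehicle, -0.1565 to 0.0858 for genotype under rosiglitazone, -0.1502 to 0.1115 for the interaction, 0.0602 to 0.1912 for the averaged drug and -0.0624 to 0.0058 for the averaged genotype. The other alternatives kept the medians within the spread between pools (0.0834).

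The number of probes past the threshold, 0 in 6 comparisons and 3 for genotype averaged over treatments, moved with the random block to 61 for the drug in WT, 13 for the drug in Fgf21-KO, 41 and 666 for genotype under vehicle and rosiglitazone, 22 for the interaction, 20 for the averaged drug and 535 for the averaged genotype. For the drug in WT an offset of 50, median scaling and detection on all 16 arrays gave 1, and no background correction, the authors' normalized intensities and a trended robust variance 2. For genotype under vehicle the offset and detection on all arrays gave 2, and no background correction, the authors' intensities and the trended variance 3. For genotype under rosiglitazone the counts were 5 with the offset, 57 with median scaling, 13 with the trended variance, 2 with only the groups compared, and 1 with no background correction, the authors' intensities or detection on all arrays. For the averaged genotype they were 13 with the offset, 11 without background correction, 26 with median scaling, 6 with the authors' intensities, 5 with no detection filter, 9 with detection on all arrays, 39 with the trended variance and 15 without both pools. Leaving out each pool in turn, counts ran from 0 to 2702 for the drug in WT, 0 to 3391 for genotype under rosiglitazone, 0 to 1702 for the interaction, 0 to 1836 for the averaged drug and 0 to 2755 for the averaged genotype, the highest without WT rosiglitazone replicate 2 in each, and stayed at 0 for the drug in Fgf21-KO and for genotype under vehicle. The cause was not tested.

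Replicate numbers did not pair the samples: deviations of same-numbered pools correlated from -0.1025 to 0.2728. A replicate block left each median as it was and gave 0 probes in place of 3 for the averaged genotype; it changed no member's call.

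Signs of named members turned when a pool was left out. Over the fits without a WT rosiglitazone pool, Mrpl4 in WT ran from -0.4631 (without replicate 2) to 0.0073 (without replicate 1). In the interaction Mrpl46 ran from -0.4394 to 0.0269 and Mrpl16 from -0.3782 to 0.0151, and for the averaged drug Mrpl53 ran from -0.367 to 0.0602 and Mrpl11 from -0.3246 to 0.0636, in the same order. Mrpl23 in Fgf21-KO was at 0.0306 without Fgf21-KO vehicle replicate 2 and -0.1508 without replicate 1. Mrps2 in genotype under vehicle was at -0.0235 without WT vehicle replicate 2 and 0.4487 without replicate 1. Without both pools, Mrpl4 was at 0.0073 in WT and Mrpl23 at 0.0306 in Fgf21-KO, Mrpl23 at 0.0192 and Mrpl16 at 0.0521 in the interaction, and Mrpl53 at 0.0499 and Mrpl11 at 0.0848 in the averaged drug.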

Other observations

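Members often share a start region with a gene transcribed the other way. A partner start within 500 bases was found for 23 of 67 members with a promoter entry (34.3%), against 16.2% of tested genes. In the pair Mrpl46 and Mrps11, whose starts are 42 bases apart, the drug differences in Fgf21-KO fat were 0.01 and 0.15, and in WT fat 0.21 and 0.20. Mrpl47 and Ndufb5, a complex I subunit, differed by 0.29 and 0.49 in Fgf21-KO and by 0.09 and 0.63 in WT. Mrpl43 and Twnk differed by 0.24 and 0.27 in Fgf21-KO, but by 0.09 and -0.94 in WT. Mrps12 and Sars2, the mitochondrial seryl-tRNA synthetase gene, differed by 0.23 and -0.03 in Fgf21-KO and by 0.08 and 0.16 in WT. For 14 tested members the partner was also tested (Mrpl46 and Mrps11 being each other's). Under the drug in Fgf21-KO, 12 of these 14 had a higher partner, against 49.0% of all genes tested. The higher partners include Mrpl46 and Mrps11, which are members themselves. In WT the partners Tmem63b (-0.04), Fau (-0.25), Gga3 (-0.25), Helq (-0.34) and Twnk (-0.94) were lower under the drug, and the other tested partners higher. For the drug averaged over genotypes it was 10, against 52.0% of all genes tested. No test was made of these counts.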
